A study of Mus musculus with 9 samples.

Results

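The transcription factor genes Cebpa, Cebpb, Cebpd, Cebpe, Spi1, Irf8, Gfi1 and Klf4, which direct the formation of granulocytes, monocytes and dendritic cells, were followed in bone marrow progenitors of mice. The members were all probe sets that the platform annotation pairs with 1 of these 8 genes. They came to 11 of the 34945 probe sets with a single gene, and they read 7 of the 8 genes. No probe set was paired with Cebpe in the annotation used here, and Cebpe was not analysed here. Of the 11 probe sets, 8 passed the filter on dim probe sets (above the median of an array on at least 3 arrays) and were tested among 20402. The other 3 were the dimmer probe sets of Cebpb, Cebpd and Klf4.

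Cells negative for lineage markers and positive for CD117 (the product of Kit), SCA-1 and CD135 (the product of Flt3) had been sorted from bone marrow, a phenotype of multipotent progenitors with lymphoid and myeloid potential. E2A-/- mice, which lack the E proteins encoded by Tcf3, Lyl1-/- mice, which lack a factor of the TAL1 family that pairs with E proteins, and wild-type (WT) mice gave 3 arrays each. The titles call the samples biological replicates. The sources used here do not give the design of the alleles, the strain, sex or age of the mice, or whether animals were pooled.

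The members act at successive steps of myeloid commitment. C/EBP alpha, the product of Cebpa, is needed for the step to granulocyte and monocyte progenitors, and C/EBP epsilon acts later, in granule formation. C/EBP beta is the form known for granulocyte production on demand, and C/EBP delta is induced by cytokines and inflammation. PU.1, the product of Spi1, is an ETS factor whose dose weighs between myeloid and lymphoid fates. IRF8 favours monocytes and dendritic cells over granulocytes, and KLF4 acts in monocytes. GFI1 is a zinc finger repressor that favours granulocytes and opposes PU.1, and its paralogue GFI1B acts in erythroid cells and megakaryocytes.

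The arrays had been brought to one distribution, with medians of 77.9 to 79.2 intensity units and lowest values of 42.1 to 45.1. With such a floor, differences between dim values come out smaller than they are. WT 1 and WT 3 were closer than the other 35 pairs of arrays: the robust spread of their log2 difference at bright probe sets was 0.0827, against 0.193 to 0.375. They were therefore counted as 1 sample, so that WT had n = 2 and each knockout n = 3. The actin 3' over 5' intensity ratio was 10.1 on E2A-/- 2 and 10.6 on WT 2, against 2.85 to 4.23 elsewhere. Xist signal, found where an X chromosome is inactivated, lay on E2A-/- 2 and on Lyl1-/- 1 and 2 alone, and on no WT array. The Y chromosome gene Eif2s3y read 61.9 and 60.3 on Lyl1-/- 1 and 2 and 96.3 on E2A-/- 2, against 225 to 402 elsewhere. Kdm5d, also on the Y chromosome, read 55.0 and 51.5 on Lyl1-/- 1 and 2 and 81.6 on E2A-/- 2, against 86.2 to 145 elsewhere. Of the gate, Kit and Flt3 lay above the array median on all 9 arrays, and Ly6a (SCA-1) was not analysed here. Of the lineage markers, Itgam lay below the median, while Cd3e lay above it on all 9 arrays, at 103 to 120. Flt3 read 1141, 1217 and 863 in E2A-/- cells and 672, 742 and 1136 in Lyl1-/- cells, against 1302, 1052 and 1254 in WT cells. Kit read 493, 428 and 327 in E2A-/- cells and 379, 397 and 314 in Lyl1-/- cells, against 508, 465 and 474 in WT cells. All 3 Lyl1-/- arrays were below all WT arrays for Kit, and Lyl1-/- 1 and 2 were the lowest of the 9 for Flt3. Lyl1-/- and WT did not overlap, in either direction, for 21.2% of all probe sets. Between Lyl1-/- and WT the log2 differences were -0.40 for Kit (SE 0.176, unadjusted p of 0.0498, limma adjusted p = 0.597) and -0.49 for Flt3 (SE 0.236, limma adjusted p = 0.660). Lyl1 read 79.2 to 92.0 in Lyl1-/- cells, 825 to 1222 in E2A-/- cells and 1352 to 1443 in WT cells. Its log2 difference between Lyl1-/- and WT was -4.01 (SE 0.164, limma adjusted p = 2.66e-05). The brightest Tcf3 probe set read 172.3, 192.8 and 121.4 in E2A-/- cells, against 204.6, 164.2 and 195.2 in WT cells. Which part of Tcf3 was deleted is not given, and a probe set outside that part checks nothing.

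E proteins and LYL1 bind DNA at E-boxes, the motif CANNTG, so the windows around the annotated starts of Cebpa and Gfi1 are shown. These are the members whose Lyl1-/- and WT arrays did not overlap, as described further on, which held for 21.2% of all probe sets. Each window runs 5' to 3' on the strand of the gene from 250 bases before the start to 50 bases after it (RefSeq, GRCm38.p6), and capitals mark each CANNTG. The Cebpa window is chr7:35119043-35119342 on the plus strand. Gfi1 has 2 annotated starts on the minus strand, with windows at chr5:107725756-107726055 and chr5:107724294-107724593.
Cebpa: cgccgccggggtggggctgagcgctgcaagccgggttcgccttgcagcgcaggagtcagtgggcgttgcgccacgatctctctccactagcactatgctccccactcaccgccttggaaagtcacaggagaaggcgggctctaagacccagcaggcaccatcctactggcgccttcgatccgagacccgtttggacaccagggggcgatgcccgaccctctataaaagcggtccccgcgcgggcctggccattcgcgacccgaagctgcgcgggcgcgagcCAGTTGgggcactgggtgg
Gfi1 first start: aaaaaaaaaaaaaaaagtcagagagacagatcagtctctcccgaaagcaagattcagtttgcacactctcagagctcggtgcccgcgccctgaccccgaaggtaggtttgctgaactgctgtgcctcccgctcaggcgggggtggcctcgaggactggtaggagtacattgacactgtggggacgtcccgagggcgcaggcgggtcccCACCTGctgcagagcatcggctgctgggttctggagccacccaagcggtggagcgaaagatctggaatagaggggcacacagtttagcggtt
Gfi1 second start: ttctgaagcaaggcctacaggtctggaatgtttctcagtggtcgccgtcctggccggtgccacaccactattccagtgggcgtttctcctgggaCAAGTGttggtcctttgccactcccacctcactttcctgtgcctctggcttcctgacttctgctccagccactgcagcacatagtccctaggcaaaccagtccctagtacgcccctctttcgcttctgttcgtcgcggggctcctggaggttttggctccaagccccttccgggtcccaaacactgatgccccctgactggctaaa

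The Cebpa window held 1 E-box, CAGTTG, which began 31 bases after the start. The first Gfi1 window held CACCTG at position -42 from the start, and the second held CAAGTG at position -156. CANNTG reads as CANNTG on the other strand, so both strands are covered. It occurred in 72.3% of the 32851 windows of this length in the same table, so that a window holding 1 is the common case. Windows of 5 of the 8 genes were matched, 7 in all. Those of Klf4 (chr4:55532426-55532725) and of the downstream start of Irf8 (chr8:120738389-120738688) held 2 E-boxes each, and those of Cebpb and of the upstream start of Irf8 held none. GAGGAA, a purine-rich form of an ETS site, searched on both strands, was in 28.3% of all windows and in 0 of these 7. Shorter and other forms of the ETS site were not searched. These matches describe the letters of the windows and were not tested against the expression values.

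Cebpa was brighter on the Lyl1-/- arrays than on any WT array. Its intensity was 172, 164 and 103 in Lyl1-/- cells, and 99.6, 121 and 104 in E2A-/- cells, against 95.7, 96.4 and 101 in WT cells. Lyl1-/- 1 and 2 stood well above the other 7 arrays, while Lyl1-/- 3 was within 3 units of the brightest WT array and inside the range of E2A-/- cells. Lack of overlap between Lyl1-/- and WT, in either direction, was found for 21.2% of all probe sets. On the log2 scale Cebpa averaged 7.16 ± 0.41 in Lyl1-/- cells (SD, n = 3), 6.75 ± 0.15 in E2A-/- cells (SD, n = 3) and 6.60 ± 0.02 in WT cells (SD, n = 2). The difference between Lyl1-/- and WT was 0.56 (1.47-fold, SE 0.208, 95% interval 0.08 to 1.03), with an unadjusted p of 0.0268 and a limma adjusted p of 0.50, so it was not called. Between E2A-/- and WT it was 0.15 (95% interval -0.33 to 0.62, limma adjusted p = 0.950). In a bulk sample, more cells with a transcript and more transcript per cell cannot be told apart, which holds for every value here.

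The 2 Lyl1-/- arrays with high Cebpa were also those with Xist signal, with the lowest Flt3 and with more granule protein transcripts. The median difference from WT of the primary granule list was 1.34, 1.15 and -0.09 on Lyl1-/- 1, 2 and 3, and that of the mature granulocyte list was 0.73, 0.73 and -0.14. With the Xist signal as a covariate, the Cebpa difference between Lyl1-/- and WT was 0.24. No WT array had Xist signal, so this covariate was set by the knockout arrays alone. It cannot fully separate sex from genotype. Without Lyl1-/- 3 the Cebpa difference was 0.79 (limma adjusted p = 0.0681). The part of Flt3 level and of granule transcripts in the Cebpa value was not tested.

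Cebpb read alike in the 3 genotypes apart from 1 array. Its brighter probe set had an intensity of 94.1, 145 and 100.4 in E2A-/- cells, and of 98.6, 109 and 108 in Lyl1-/- cells, against 107, 97.9 and 103 in WT cells. E2A-/- 2 alone stood apart. The difference was 0.13 between E2A-/- and WT (95% interval -0.27 to 0.53, limma adjusted p = 0.942) and 0.06 between Lyl1-/- and WT (95% interval -0.34 to 0.45, limma adjusted p = 0.982). Without E2A-/- 2 the first became -0.06. The other Cebpb probe set, not tested, read 69.6 to 77.5 in E2A-/- cells, 70.7 to 73.6 in Lyl1-/- cells and 68.5 to 73.9 in WT cells, below the median on all 9 arrays.

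Cebpd was brighter on all 3 E2A-/- arrays than on any WT array. Its brighter probe set read 159, 230 and 173 in E2A-/- cells and 204, 132 and 120.2 in Lyl1-/- cells, against 140.2, 113 and 142 in WT cells. The highest value fell on E2A-/- 2, and the Lyl1-/- arrays spanned both sides of WT. Lack of overlap between E2A-/- and WT, in either direction, was found for 17.6% of all probe sets. On the log2 scale Cebpd averaged 7.53 ± 0.28 in E2A-/- cells (SD, n = 3), 7.21 ± 0.41 in Lyl1-/- cells (SD, n = 3) and 6.98 ± 0.22 in WT cells (SD, n = 2). The difference between E2A-/- and WT was 0.55 (1.46-fold, SE 0.243, 95% interval -0.01 to 1.10), with an unadjusted p of 0.0525 and a limma adjusted p of 0.628. Between Lyl1-/- and WT it was 0.22 (95% interval -0.33 to 0.78, limma adjusted p = 0.909). Without WT 2 and E2A-/- 2, the arrays with a high actin ratio, the difference between E2A-/- and WT was 0.23. The dimmer Cebpd probe set, not tested, read 73.8 to 78.7 in E2A-/- cells, 75.3 to 94.7 in Lyl1-/- cells and 72.5 to 76.4 in WT cells.

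The Spi1 values of the knockouts lay farther from each other than from WT. Its intensity was 321, 192 and 203 in E2A-/- cells and 489, 351 and 309 in Lyl1-/- cells, against 315, 230.2 and 323 in WT cells. E2A-/- 2 and 3 were the lowest of the 9 arrays, E2A-/- 1 lay within the range of Lyl1-/- and of WT, and Lyl1-/- 1 and 2 were the highest. On the log2 scale Spi1 averaged 7.86 ± 0.41 in E2A-/- cells (SD, n = 3), 8.55 ± 0.34 in Lyl1-/- cells (SD, n = 3) and 8.08 ± 0.33 in WT cells (SD, n = 2). WT thus lay between the knockouts, and its distance to neither was beyond the spread. The difference between E2A-/- and Lyl1-/- was -0.70 (SE 0.242, 95% interval -1.25 to -0.15, unadjusted p of 0.0190, limma adjusted p = 0.533). Against WT it was -0.23 in E2A-/- cells (95% interval -0.84 to 0.39, limma adjusted p = 0.932) and 0.47 in Lyl1-/- cells (95% interval -0.14 to 1.09, limma adjusted p = 0.738). These 2 values became -0.46 and 0.24 without WT 2, and with the actin ratio as a covariate -0.31 and 0.21. The E2A-/- value was -0.46, -0.09 and -0.13 without E2A-/- 1, 2 or 3, and the Lyl1-/- value was 0.28 without Lyl1-/- 1. Lyl1-/- 1 and 2, the arrays with the highest Spi1, had the lowest Flt3.

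The 2 arrays with low Spi1 also held transcripts of mature granulocytes. The summed intensity of the 12 mature granulocyte markers with a probe set was 1993 to 20519 in E2A-/- cells, 2277 to 3882 in Lyl1-/- cells and 1985 to 2497 in WT cells. The median difference from WT of the 9 tested markers was 0.02, 3.37 and 3.55 on E2A-/- 1, 2 and 3. The number of the 12 above the array median ran from 7 to 11 in E2A-/- cells, 8 to 9 in Lyl1-/- cells and 7 to 8 in WT cells. Without E2A-/- 2 and 3 the Spi1 difference was 0.24 between E2A-/- and WT and -0.23 between E2A-/- and Lyl1-/-, from a single E2A-/- array. On Lyl1-/- 1 and 2 the same marker median was 0.73 and 0.73, while Spi1 was 0.85 and 0.37 above the WT mean. The part of granulocyte transcripts in the Spi1 values was not tested.

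Irf8 read lower on WT 2 than on the other 8 arrays by both of its probe sets. The brighter one had an intensity of 616, 414 and 537 in E2A-/- cells and of 445, 465 and 580.5 in Lyl1-/- cells, against 500, 216 and 514 in WT cells. The dimmer one read 196, 161 and 194 in E2A-/- cells and 154, 159 and 168 in Lyl1-/- cells, against 146, 105 and 158 in WT cells. Both probe sets cite the same transcript record, and they correlated at r = 0.93 over the 8 samples, so they are not independent readings.

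By the dimmer probe set every E2A-/- array was above every WT array, and the difference was 0.54 (1.45-fold, SE 0.163, 95% interval 0.17 to 0.91), with an unadjusted p of 0.00990 and a limma adjusted p of 0.406. By the brighter one it was 0.64 (SE 0.325, 95% interval -0.10 to 1.38, limma adjusted p = 0.705), with overlap. E2A-/- and WT did not overlap, in either direction, for 17.6% of all probe sets. Between Lyl1-/- and WT the differences were 0.35 (95% interval -0.02 to 0.72, limma adjusted p = 0.638) and 0.58 (95% interval -0.16 to 1.32, limma adjusted p = 0.734). These differences were smaller without WT 2, an array with a high actin ratio. Without it the E2A-/- differences were 0.27 by the dimmer and 0.02 by the brighter probe set, and the Lyl1-/- differences were 0.08 and -0.04. On E2A-/- 2, the other array with a high actin ratio, Irf8 was the lowest of the E2A-/- arrays by both probe sets. With the actin ratio as a covariate, the brighter probe set differed from WT by 0.53 in E2A-/- cells and 0.24 in Lyl1-/- cells. Whether what raised the actin ratio also lowered Irf8 was not tested.

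**Figure D1:**
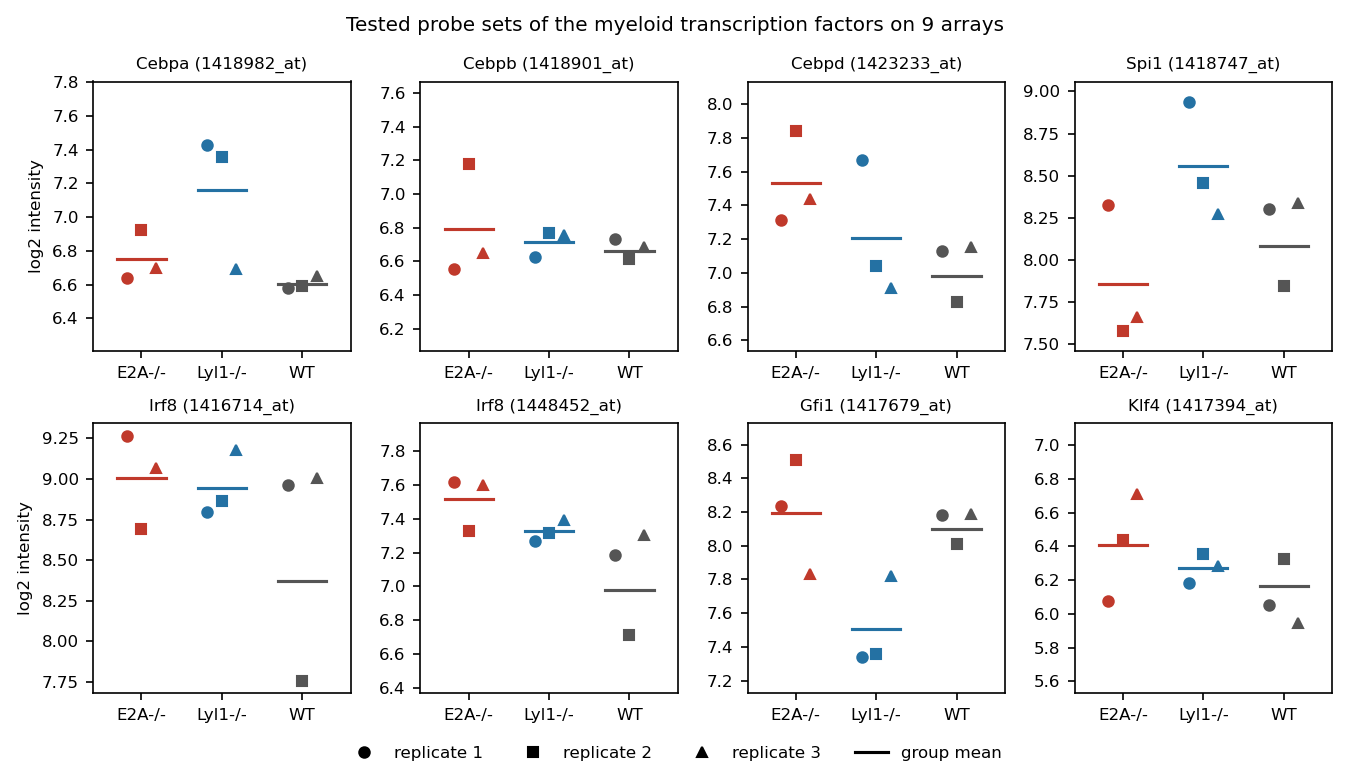
Intensity on the log2 scale (vertical axis, a separate range per panel) of the 8 tested probe sets on each array of the 3 genotypes; points are arrays, symbols give the replicate number, and the bar is the group mean, with WT 1 and 3 counted as 1 sample. Cebpa is high on Lyl1-/- 1 and 2, Spi1 is low on E2A-/- 2 and 3, Irf8 is low on WT 2, and the 3 Lyl1-/- points of Gfi1 lie below all others.

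Gfi1 was the one tested member whose Lyl1-/- arrays overlapped with neither other genotype. Its intensity was 162, 164 and 226 in Lyl1-/- cells and 302, 365 and 227 in E2A-/- cells, against 291, 258 and 291 in WT cells. All 3 Lyl1-/- arrays were below all other arrays, though Lyl1-/- 3 lay just under E2A-/- 3. Of all probe sets, 21.2% had no overlap between Lyl1-/- and WT and 11.5% had none between the knockouts. The share without overlap in both was not counted. The log2 mean was 7.51 ± 0.27 in Lyl1-/- cells (SD, n = 3), 8.19 ± 0.34 in E2A-/- cells (SD, n = 3) and 8.10 ± 0.12 in WT cells (SD, n = 2).

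Between Lyl1-/- and WT the Gfi1 difference was -0.59 (0.663-fold, SE 0.213, 95% interval -1.08 to -0.11), with an unadjusted p of 0.0224 and a limma adjusted p of 0.476. Between E2A-/- and Lyl1-/- it was 0.69 (1.61-fold, SE 0.191, 95% interval 0.25 to 1.12), with an unadjusted p of 0.00624 and a limma adjusted p of 0.459. Neither was called. The E2A-/- and WT values did not differ beyond their spread (0.09, 95% interval -0.39 to 0.58, limma adjusted p = 0.978). With the Xist covariate the difference between Lyl1-/- and WT was -0.60, and over 24 alternative settings it ran from -0.75 to -0.50. As no WT array had Xist signal, that covariate cannot fully separate sex from genotype.

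Gfi1b, the paralogue, was the only gene called among the 32 tested of the 3 related lists described below. Unlike Gfi1, it was highest in Lyl1-/- cells. Groups did not overlap for 17.6% of all probe sets between E2A-/- and WT, 21.2% between Lyl1-/- and WT and 11.5% between the knockouts. The 3 genotypes did not overlap for Gfi1b. Its intensity was 133, 106 and 89.2 in E2A-/- cells and 273, 239.9 and 222 in Lyl1-/- cells, against 164, 183 and 174 in WT cells. It was lower in E2A-/- than in Lyl1-/- cells by a log2 difference of -1.18 (SE 0.150, 95% interval -1.52 to -0.84, limma adjusted p = 0.0488), and this call was kept under 10 of 24 alternative settings, with adjusted p-values of 0.0116 to 0.567. By limma the adjusted p was 0.159 without E2A-/- 2, 0.124 without E2A-/- 3, 0.343, 0.305 and 0.0746 without Lyl1-/- 1, 2 or 3, and 0.107 and 0.0535 without WT 2 or 3, while the difference ran from -1.25 to -1.04 in these fits. The difference from WT was -0.71 in E2A-/- cells (SE 0.168, limma adjusted p = 0.234) and 0.47 in Lyl1-/- cells (SE 0.168, limma adjusted p = 0.469), neither called. The comparisons share arrays, so these values are not independent of each other.

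**Figure D2:**
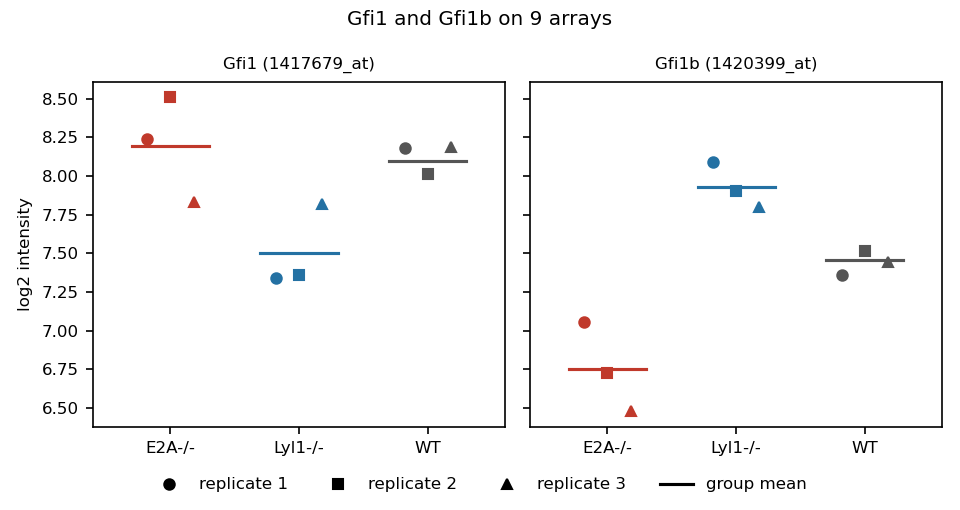
Intensity on the log2 scale (vertical axis) of Gfi1 and of its paralogue Gfi1b on the 9 arrays; points are arrays, symbols give the replicate number and the bar is the group mean, with WT 1 and 3 counted as 1 sample. Lyl1-/- cells are lowest for Gfi1 and highest for Gfi1b, and E2A-/- cells are lowest for Gfi1b.

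Klf4 lay near the median of the arrays. Its brighter probe set had an intensity of 67.4, 86.8 and 105 in E2A-/- cells and of 72.6, 81.7 and 77.8 in Lyl1-/- cells, against 66.5, 80.2 and 61.7 in WT cells. It was above the array median on 4 of 9 arrays, and the highest values were on E2A-/- 2 and 3, where mature granulocyte transcripts were found. The part of those transcripts in the Klf4 values was not tested. The differences were 0.24 between E2A-/- and WT (95% interval -0.17 to 0.66, limma adjusted p = 0.849) and 0.11 between Lyl1-/- and WT (95% interval -0.31 to 0.52, limma adjusted p = 0.953). The other Klf4 probe set, which cites the same transcript record, read 66.3 to 74.1 in E2A-/- cells, 64.9 to 85.2 in Lyl1-/- cells and 64.8 to 69.0 in WT cells. It was above the median on 1 array and was not tested.

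Over the set, 0 of 8 tested probe sets passed an adjusted p of 0.05 in any comparison (limma, Benjamini-Hochberg over all 20402). The share of all probe sets that passed was 0.221% between E2A-/- and WT, 0.216% between Lyl1-/- and WT and 0.0735% between E2A-/- and Lyl1-/-. An unadjusted p under 0.05 was reached by 1 member between E2A-/- and WT (Irf8), against 8.08% of all probe sets. It was reached by 2 between Lyl1-/- and WT (Cebpa and Gfi1), against 8.36%, and by 2 between E2A-/- and Lyl1-/- (Spi1 and Gfi1), against 7.72%. Groups that did not overlap were found for 2 of 8 between E2A-/- and WT (Cebpd and 1 probe set of Irf8), against 17.6% of all. They were found for 2 of 8 between Lyl1-/- and WT (Cebpa and Gfi1), against 21.2%, and for 1 of 8 between E2A-/- and Lyl1-/- (Gfi1), against 11.5%. With 8 probe sets, counts this small cannot set the members apart from the background, and no test of this was made.

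The sign of the difference was positive for 7 of 8 members in E2A-/- cells against WT (all but Spi1) and for 7 of 8 in Lyl1-/- cells against WT (all but Gfi1). Of all tested probe sets 46.7% and 48.9% were positive in these comparisons. The member median was 0.20 in E2A-/- cells and 0.29 in Lyl1-/- cells, against -0.01 and -0.00 over all probe sets. Both comparisons use the same WT samples, and these tallies were lower under some settings. Without E2A-/- 2, 5 of 8 were positive in E2A-/- cells, with Cebpb at -0.06 and Gfi1 at -0.06. With the Xist covariate 6 of 8 were positive in E2A-/- cells (Cebpa at -0.01) and 5 of 8 in Lyl1-/- cells (Cebpb at -0.12 and Cebpd at -0.08). In Lyl1-/- cells 6 of 8 were positive without WT 2, where the brighter Irf8 probe set stood at -0.04, and 6 of 8 without Lyl1-/- 1, where Cebpd stood at -0.01. Without WT 2 and E2A-/- 2, 7 members were tested, of which 4 were positive in E2A-/- cells and 5 in Lyl1-/- cells. Between E2A-/- and Lyl1-/- 6 of 8 were positive, with a median of 0.11 against -0.01 for all.

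**Figure D3:**
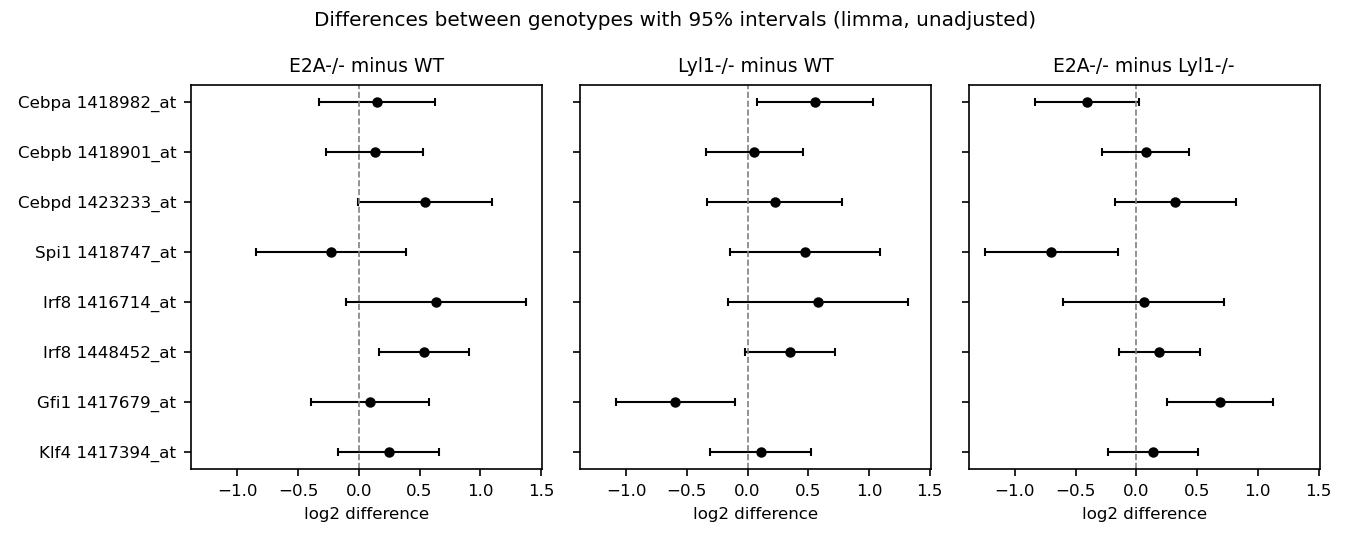
Differences between genotypes on the log2 scale (horizontal axis) for the 8 tested probe sets (rows), with unadjusted 95% intervals from limma; points right of 0 are higher in the genotype named first. The intervals that leave out 0 are those of 1 Irf8 probe set (E2A-/- minus WT), Cebpa and Gfi1 (Lyl1-/- minus WT), and Spi1 and Gfi1 (E2A-/- minus Lyl1-/-).

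Cytokine receptor genes, among them textbook targets of PU.1 and C/EBP factors, had 0 calls by limma among 7 tested members in each comparison. An unadjusted p under 0.05 was reached by 0 between E2A-/- and WT, by 2 between Lyl1-/- and WT and by 2 between the knockouts. The shares of all probe sets in these comparisons were 8.08%, 8.36% and 7.72%. Csf1r, the receptor for macrophage growth factor, read 425, 330.0 and 681 in E2A-/- cells and 1310.2, 1117 and 532 in Lyl1-/- cells, against 383, 290 and 379 in WT cells. As with Cebpa and Spi1, Lyl1-/- 1 and 2 were the highest arrays, and they had the lowest Flt3. The Csf1r difference between Lyl1-/- and WT was 1.47 (SE 0.404, limma adjusted p = 0.328). Csf2rb2, a beta chain that serves the interleukin-3 receptor of the mouse, was lowest in Lyl1-/- cells, at 88.9, 81.8 and 81.6, with 91.4, 99.9 and 127 in E2A-/- cells, against 138, 123 and 140.5 in WT cells. Its difference between Lyl1-/- and WT was -0.64 (SE 0.145, limma adjusted p = 0.221). The list median was -0.04 in E2A-/- cells and -0.04 in Lyl1-/- cells, against -0.01 and -0.00 over all probe sets.

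Primary granule genes, switched on early in granulocyte development, had 0 calls by limma among 6 tested of 7 listed. Only Elane, between E2A-/- and WT, had an unadjusted p under 0.05 in any comparison, against 8.08% of all probe sets in that one. In both knockouts 5 of 6 had a positive difference from WT, with medians of 0.66 in E2A-/- cells and 0.77 in Lyl1-/- cells. Of all tested probe sets 46.7% and 48.9% were positive in these comparisons. Elane, the neutrophil elastase gene, read 408, 342 and 768 in E2A-/- cells and 523, 635 and 143 in Lyl1-/- cells, against 180.0, 119 and 168 in WT cells. Its difference from WT was 1.72 in E2A-/- cells (SE 0.601, limma adjusted p = 0.502) and 1.33 in Lyl1-/- cells (SE 0.601, limma adjusted p = 0.619). Ctsg, the cathepsin G gene, read 2506, 1437 and 3062 in E2A-/- cells and 3608, 3414 and 1193 in Lyl1-/- cells, against 1664, 977 and 1686 in WT cells. Lyl1-/- 3 lay within the WT range for both genes, as it nearly did for Cebpa. The myeloperoxidase gene Mpo had a negative difference, -0.48 between Lyl1-/- and WT (SE 0.326, limma adjusted p = 0.798).

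Cofactors, competitors and regulators of the members were tested for 19 of 24 genes. In each comparison with WT 14 of the 19 had a negative difference and 5 a positive one. Of all tested probe sets 46.7% were positive between E2A-/- and WT and 48.9% between Lyl1-/- and WT. By limma 0 of the 19 were called against WT. An unadjusted p under 0.05 was reached by 4 between E2A-/- and WT, against 8.08% of all probe sets. It was reached by 3 between Lyl1-/- and WT, against 8.36%. Between the knockouts 1 was called by limma (Gfi1b), against 0.0735% of all, and 5 had an unadjusted p under 0.05, against 7.72%. The median was -0.17 in E2A-/- cells and -0.09 in Lyl1-/- cells, against -0.01 and -0.00 over all probe sets. Myb, a factor of immature progenitors, read 2051, 1760.3 and 2093 in E2A-/- cells and 2024, 1969 and 2051 in Lyl1-/- cells, against 2516, 2406 and 2550.5 in WT cells. Both knockouts were below all WT arrays, with differences of -0.33 (SE 0.104, limma adjusted p = 0.418) and -0.29 (SE 0.104, limma adjusted p = 0.467). Groups without overlap, in either direction, were 17.6% of all probe sets between E2A-/- and WT and 21.2% between Lyl1-/- and WT. Runx1, an upstream regulator of Spi1, stood at -0.46 in E2A-/- cells against WT (SE 0.154, limma adjusted p = 0.472). Zfpm1, the GATA cofactor FOG1, stood at -0.36 in the same comparison (SE 0.124, limma adjusted p = 0.494). Gata2 stood at -0.44 in Lyl1-/- cells against WT (SE 0.189, limma adjusted p = 0.593).

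**Figure D4:**
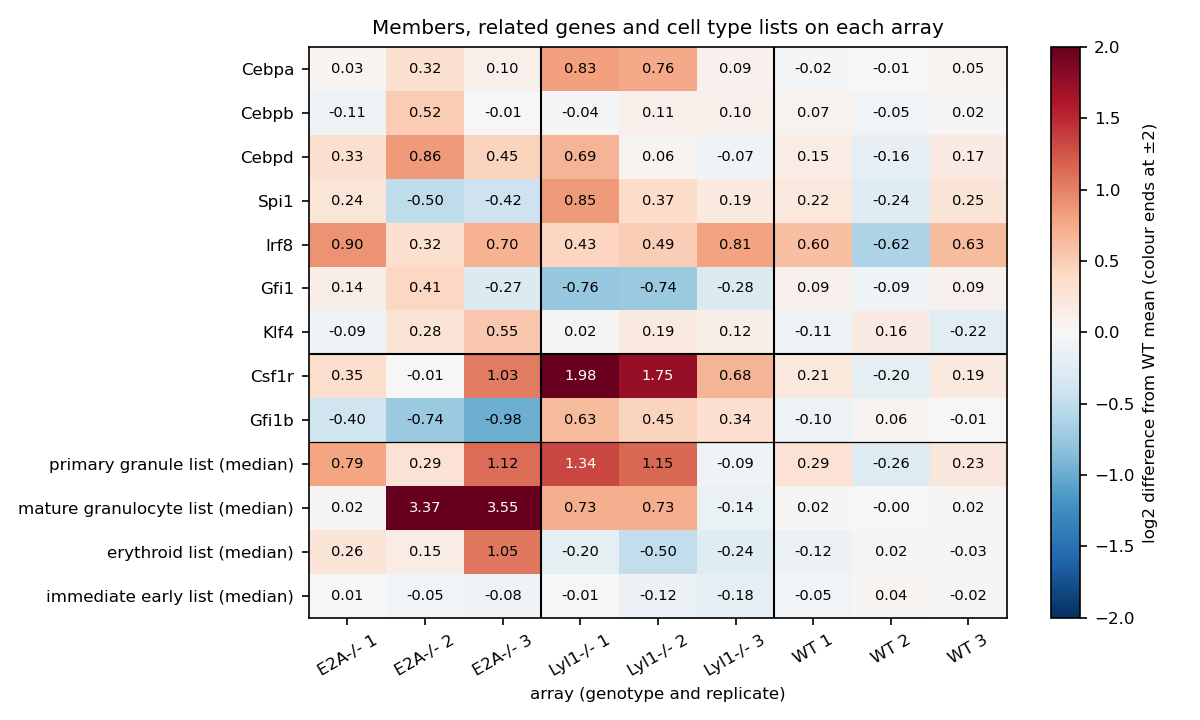
Log2 difference of each array from the WT mean (colour and printed value) for the 7 measured members by their brightest probe set, Csf1r, Gfi1b and the medians of 4 gene lists (rows), on the 9 arrays (columns). Lyl1-/- 1 and 2 stand at 0.83 and 0.76 for Cebpa beside 1.34 and 1.15 for the primary granule list, and E2A-/- 2 and 3 stand at -0.50 and -0.42 for Spi1 beside 3.37 and 3.55 for the mature granulocyte list.

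Markers of other cell types varied as well. The summed intensity of 6 erythroid markers was 898 to 1995 in E2A-/- cells, 524 to 619.8 in Lyl1-/- cells and 676 to 718 in WT cells. That of 10 markers of monocytes, macrophages and dendritic cells was 2134 to 3039 in E2A-/- cells, 2666 to 3338 in Lyl1-/- cells and 1926 to 2328 in WT cells. Much of this sum was Cst3, at 965 to 1602 in E2A-/- cells, 1415 to 1974 in Lyl1-/- cells and 1030 to 1312 in WT cells. Ms4a6c read 638, 466 and 685 in E2A-/- cells and 391, 396 and 254 in Lyl1-/- cells, against 253, 203 and 289 in WT cells. Its difference between E2A-/- and WT was 1.33 (SE 0.241, limma adjusted p = 0.115), not called. In that comparison 6 tested markers of the list were higher and 3 lower. The median difference from WT of the 9 tested markers was 0.06 in E2A-/- cells and 0.07 in Lyl1-/- cells. The summed intensity of 11 immediate early genes, which respond to handling, was 1345 to 1452 in E2A-/- cells, 1218 to 1334 in Lyl1-/- cells and 1259 to 1477 in WT cells. The part of these cells or responses in the members' values was not tested.

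Among the members themselves, Cebpa and Gfi1 had opposite profiles over the 8 samples (r = -0.71), as had Spi1 and Gfi1 (r = -0.65) and Spi1 and Klf4 (r = -0.65), while Cebpa and Spi1 correlated at r = 0.58. These are descriptions over samples that share 3 genotypes, with no test. Of 4463 genes with an SD of at least 0.2 on the log2 scale, the closest profiles by Pearson's r were Rab8a (0.97) and Gbp6 (0.92) for Cebpa, and Igf2r (0.98) and Rfx7 (0.95) for Gfi1. For Spi1 they were Ppan (0.97) and Fam114a2 (0.97), and for Irf8 Cyfip2 (0.99) and Cox4i1 (0.93). For Cebpb they were Vrk2 (0.97) and Slf2 (0.97), for Cebpd Pik3cd (0.94) and Hcls1 (0.93), and for Klf4 Lin54 (0.92) and Dck (0.89). They were picked as the highest of many, so they carry no test. Cebpb's profile is set by its peak on E2A-/- 2 and Irf8's by its low value on WT 2, and Slf2 (542 on E2A-/- 2, 261 to 363 elsewhere) and Cyfip2 (316 on WT 2, 403 to 512 elsewhere) had the same single array apart.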

How the data were processed

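Intensity was read on 9 Affymetrix 3' arrays, 3 per genotype, and titles gave groups and replicate numbers. Each deposited value is a linear intensity of 1 probe set on 1 array. RMA and oligo were the authors' tools per the submitters' processing notes; versions and a background step are not given in the sources used here. Of 45101 probe sets 64 controls were left out. GEO's platform annotation named 1 gene for 34945, several for 932 and none for 9160, and only the first were used; 0 symbols changed through RefSeq (34741 matched).

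Log2 was taken without a pseudocount. Probe sets brighter than the array median on 3 or more arrays (20402) entered 1 limma 3.58.1 fit (lmFit, eBayes, R 4.3.3) of the 3 genotypes over 8 samples, with WT 1 and WT 3 averaged (0 probe sets beyond 2-fold between them, against 6 to 371 in other pairs), 5 residual degrees of freedom and Benjamini-Hochberg adjustment at 0.05 over all probe sets. The number of arrays limits the precision, and p-values measure the spread between these samples.

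The members and gene lists were chosen with earlier results of these data known. All probe sets of the members were named, the 2 genes most correlated with each, and up to 4 genes per list and comparison by unadjusted p; a list gene is read by its brightest probe set. Lists were described by counts and medians. Alternatives were other normalizations, filters, summaries per gene, priors, covariates, a replicate block and left-out arrays. Same-numbered arrays of different genotypes had correlated deviations of -0.14 to 0.25, and 5 of 9 arrays correlated best with their own number. These values do not settle whether the numbers pair the samples. The main fit did not pair them, and a fit with the replicate number as a block is given below.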

Additional observations from a re-analysis of the deposited data

How the results depend on the processing

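Under each of 24 alternative settings, all planned with earlier results known, 0 member probe sets were called in any comparison (limma). The lowest adjusted p among the members ran from 0.188 to 1.00 between E2A-/- and WT, from 0.0681 to 1 between Lyl1-/- and WT, and from 0.179 to 0.921 between E2A-/- and Lyl1-/-. Fitted as 9 separate samples with the replicate number as a block, 0 members were called, with lowest adjusted p-values of 0.188, 0.230 and 0.261 in these comparisons, and 94, 88 and 16 of all probe sets were called, against 45, 44 and 15 in the fit as reported. Of 555 recomputed member differences 20 turned sign, in 10 of 24 differences, all of them uncalled, and 13 moved by at least the pooled SD. Under these settings Cebpa stayed positive between Lyl1-/- and WT (0.24 with the Xist covariate, 0.79 without Lyl1-/- 3). Gfi1 stayed positive between E2A-/- and Lyl1-/- (0.53 to 0.87), with an unadjusted p under 0.05 in 24 of 24 settings. Its difference between E2A-/- and WT was -0.15 without WT 2 and E2A-/- 2, and the Cebpd difference there was 0.23. The Gfi1b call between the knockouts was lost in 14 of 24 settings, among them those without any 1 of E2A-/- 2 or 3, Lyl1-/- 1, 2 or 3 and WT 2 or 3, while over all 24 settings the difference ran from -1.45 to -0.87. Csf2rb2 was called lower in Lyl1-/- than in WT cells with 9 separate samples. Calls over all probe sets moved by over 1.5 times in 13, 11 and 7 of 24 settings. They ran from 8 without WT 2 to 154 with 9 separate samples between E2A-/- and WT, from 7 without WT 2 and E2A-/- 2 to 149 with 9 separate samples between Lyl1-/- and WT, and from 4 to 26, the highest without Lyl1-/- 3, between the knockouts. The cause of these shifts was not tested. Fits that leave 1 array in a group take its spread from the other groups. Brightness limits Klf4, which left the tests under the stricter filter, as did Cebpa and Cebpb.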
